A study of Mus musculus with 2 samples.

Results

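Synaptic vesicle and release genes were taken here as the 92 genes, of 13697 named on the array, whose symbol belongs to the VAMP, syntaxin, SNAP, synaptotagmin, synapsin, synaptophysin, synaptogyrin, SV2, synuclein, complexin, syntaxin-binding, RIM, UNC13, RAB3, neurexin, neuroligin or granin families. They are read by 97 probes. The rule matches symbols of probes annotated with exactly 1 gene and uses no measured value, although the families were picked with earlier results of these data known. The pattern for RAB3 also takes 11 genes numbered Rab30 to Rab39b, which are other RAB GTPases, and these are described apart. Expression was measured in mouse embryoid bodies, aggregates in which embryonic stem cells differentiate, that had been exposed to 2 µM retinoic acid and were examined at day 4. The control bodies came from Elongin A+/+ cells and the others from Elongin A-/- cells, and both were grown in a medium with serum and N2 supplement. Elongin A is a subunit of a complex that stimulates transcription elongation by RNA polymerase II. There was 1 array per genotype, so a difference of genotype cannot be told apart from one of cell line, culture or array, there is no replicate error, and no difference below carries a p-value.

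Neurotransmitter is released when a vesicle fuses with the plasma membrane. A vesicle SNARE (a VAMP) pairs with target SNAREs (a syntaxin and a SNAP protein), complexins and syntaxin-binding proteins act on this pair, and synaptotagmins sense the calcium that triggers fusion. The same protein families also serve traffic between the Golgi, endosomes and plasma membrane in every cell, and granins fill the dense-core vesicles of neurons and endocrine cells. Retinoic acid drives embryoid bodies towards neural fates, so genes of both kinds can be present in them.

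The granins' promoters are shown first, a family picked for display after its values were seen. All 4 granins above the floor (the array median) on both arrays were lower on the Elongin A-/- array, where 52.2% of all such genes were lower by any margin, and the remaining one, Scg2, was near the floor. The stretches below run from 140 bases before the annotated transcription start to the base before it, 5′ to 3′ on the gene's strand, and come from RefSeq on build GRCm38.p6. Capitals mark TGACGTCA, the cAMP response element, in Chgb and Scg2, and TGACGTAA in Chga. In Scg2 they also mark GGACAGC and, cut short by the start site, TTCAGCACC. Both lie on the opposite strand and are parts of the site bound by REST, a repressor of neuronal genes.
Chga, chr12:102554801-102554940, plus strand: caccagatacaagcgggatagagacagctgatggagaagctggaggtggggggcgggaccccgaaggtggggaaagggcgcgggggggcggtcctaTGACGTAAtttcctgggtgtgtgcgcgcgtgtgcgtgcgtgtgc
Chgb, chr2:132781502-132781641, plus strand: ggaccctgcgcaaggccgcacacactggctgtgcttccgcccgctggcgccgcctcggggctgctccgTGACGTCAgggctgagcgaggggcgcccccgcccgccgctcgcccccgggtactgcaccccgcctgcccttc
Scg2, chr1:79440027-79440166, minus strand: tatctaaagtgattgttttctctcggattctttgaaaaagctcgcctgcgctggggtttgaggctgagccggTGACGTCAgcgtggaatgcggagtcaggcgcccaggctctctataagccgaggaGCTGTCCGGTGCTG
Scg3, chr9:75684057-75684196, minus strand: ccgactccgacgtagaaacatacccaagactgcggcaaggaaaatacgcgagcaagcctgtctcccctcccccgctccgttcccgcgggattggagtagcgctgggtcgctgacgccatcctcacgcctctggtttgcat
Scg5, chr2:113829092-113829231, minus strand: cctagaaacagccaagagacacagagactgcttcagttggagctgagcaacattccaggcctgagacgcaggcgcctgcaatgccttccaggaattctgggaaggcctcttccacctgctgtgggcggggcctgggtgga

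Intensities are given after quantile normalisation, and a difference is the log2 value on the Elongin A-/- array minus that on the Elongin A+/+ array. The floor is the array median, 1.03, and a gene under it on 1 array has only a bound, written "at least". Each array carried 32440 probes, with deposited medians of 1.02 and 1.03. Having 1 array each limits the precision. Probes of 1 gene disagreed in their differences with an SD of 0.43 (log2, 224 genes), called the probe SD below, which is no error between cultures. The probe of Eloa, the gene of Elongin A, read 3.87 on the Elongin A+/+ array and 3.57 on the Elongin A-/- array, and no source used here places it relative to the deleted part, so it checks nothing about the labels.

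Of the 92 members, 43 were above the floor on both arrays, 9 on the Elongin A+/+ array only, 7 on the Elongin A-/- array only and 33 on neither. Among the 43, 6 (14.0%) were at least 2-fold lower on the Elongin A-/- array, where 4.66% of all 7529 genes above the floor on both arrays were, and 1 (2.33%) was at least 2-fold higher, against 5.23%. The 6 lower genes were Syt1, Scg3, Scg5, Syt11, Stx17 and Chga, and the higher one was Vamp5. Lower by any margin were 27 of the 43 (62.8%), against 52.2% of all genes, and the median difference was -0.18 against -0.02. Bounds added Syngr3, Rab3c and Rab39b as at least 2-fold lower and no gene as 2-fold higher. That gave 9 lower and 1 higher among the 59 measured members (those above the floor on at least 1 array), where 5.97% of all 9568 measured genes were lower and 6.76% higher. A gene measured only through the array where it is high had to differ, so this count is a description of the bounds.

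**Figure D1:**
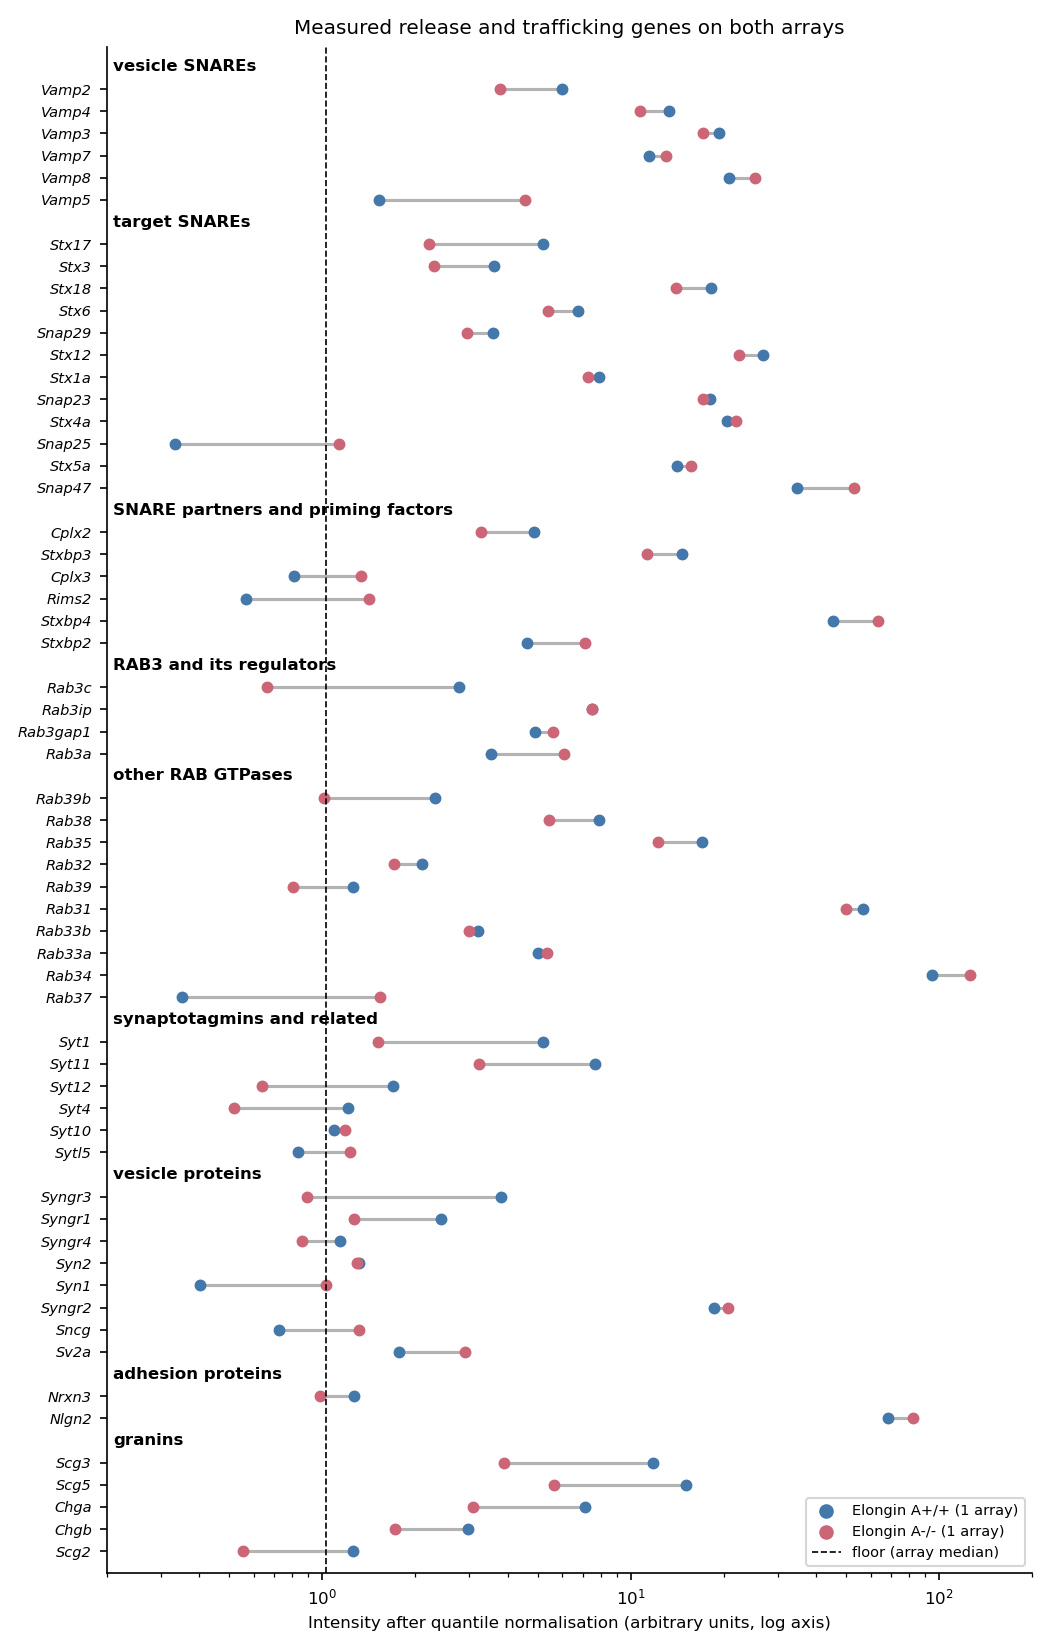
Intensity (log axis, arbitrary units) of the 59 measured members on the Elongin A+/+ array (blue) and the Elongin A-/- array (red), 1 point per array, ordered within each role by difference; the dashed line is the floor of 1.03. The 5 granins all lie further left on the Elongin A-/- array, whereas most SNAREs have points close together.

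**Figure D2:**
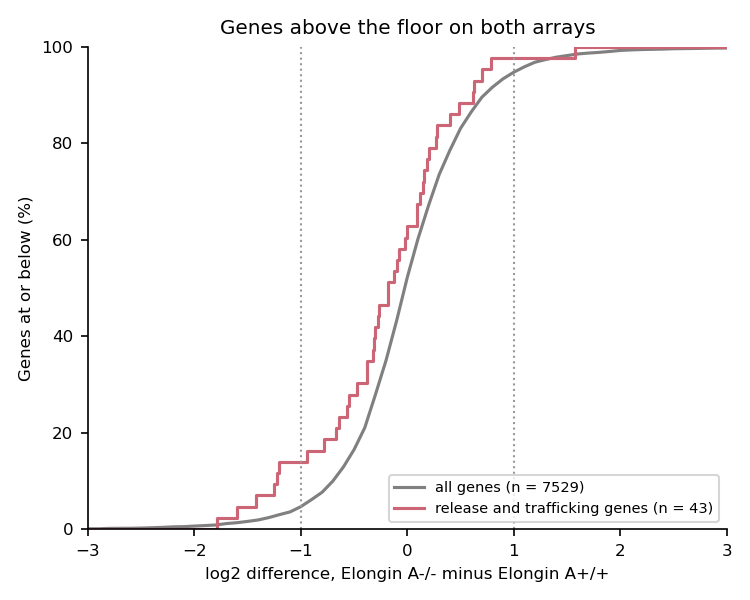
Cumulative share of genes (%) by log2 difference, for the 43 members (red) and all 7529 genes (grey) above the floor on both arrays; dotted lines mark 2-fold. At the left dotted line the red curve has reached 14.0% and the grey curve 4.66%.

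Granins are acidic proteins that help to form dense-core secretory granules and give rise to secreted peptides. Scg3, secretogranin III, read 11.8 on the Elongin A+/+ array and 3.88 on the Elongin A-/- array, a difference of -1.60 (3.04-fold lower, probe 718281). Scg5, which encodes the chaperone 7B2 of prohormone convertase 2, read 15.1 and 5.63, a difference of -1.42 (2.68-fold lower, probe 310457). Chga, chromogranin A, read 7.09 and 3.08, a difference of -1.20 (2.30-fold lower, probe 932068). These 3 genes lie on chromosomes 9, 2 and 12, where the medians of all genes were -0.09, -0.06 and -0.11. Chgb, chromogranin B, read 2.96 and 1.72, a difference of -0.78 that stays within 2-fold. Scg2, secretogranin II, read 1.26 on the Elongin A+/+ array and was below the floor on the Elongin A-/- array, at least 1.23-fold lower. The median of the 4 granins above the floor on both arrays was -1.31.

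Genes of the cells that could carry granins moved as follows. Of 18 neuronal markers listed outside these families, 14 were named on the array and 11 were above the floor on both arrays. Their median was -0.95. At least 2-fold lower were 4 of the 11 (36.4%, against 4.66% of all genes) and 2-fold higher none, and the summed intensity of the 14 was 517 on the Elongin A+/+ array and 316 on the Elongin A-/- array. Isl1 (10.03 and 2.24), Nhlh2 (90.2 and 22.2), Stmn2 (82.3 and 25.1) and Stmn3 (25.1 and 10.9) were the lower ones. Nhlh1 (2.54 and 4.24) and Gap43 (22.7 and 24.6) were higher by less than 2-fold, Dcx was above the floor only on the Elongin A-/- array, and Tubb3 read 179 and 168. Map2 lay under the floor on each array. Endocrine and neuroendocrine markers were above the floor on both arrays in 5 of 10 genes, with none at least 2-fold apart, a median of -0.65 and summed intensities of 415 and 310 over the 10 named. By any margin 3 of the 5 were lower and 2 higher. Of these, Insm1, a neuroendocrine transcription factor, read 4.00 and 2.03, and Sst, somatostatin, read 266 and 142, while Th, tyrosine hydroxylase, read 6.43 and 10.6 and Cpe, a peptide-processing enzyme, 130 and 149. The fall of Sst was larger than that of the summed intensity, so the other genes together read higher on the Elongin A-/- array. The markers Pcsk1, Ins2, Pomc, Dbh and Pax4 were below the floor on both arrays. Neural progenitor markers had a median of -0.71 over 10 of 12 genes, with 4 of the 10 at least 2-fold lower, Olig3 (40.8 and 5.71) and Fabp7 (30.6 and 7.37) furthest, and summed intensities of 305 and 230 over the 12. Hes5 (75.6 and 124.7) and Pax6 (9.32 and 12.9) were higher by less than 2-fold, and Olig2 was above the floor only on the Elongin A-/- array. The part of these cell types in the granin and synaptotagmin values was not tested, and in whole embryoid bodies fewer cells of a type and less RNA per cell cannot be told apart.

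Synaptotagmins are vesicle proteins with calcium- and lipid-binding C2 domains, and the related Sytl genes encode RAB27-binding proteins. Syt1, the fast calcium sensor of synaptic vesicles, read 5.22 and 1.51, a difference of -1.79 (3.45-fold lower, probe 318702). Syt11, a synaptotagmin that does not bind calcium, read 7.66 and 3.21, a difference of -1.25 (2.38-fold lower, probe 705706). Both differences exceed the probe SD, and the genes lie on chromosomes 10 and 3. Syt12 read 1.69 on the Elongin A+/+ array and Syt4 read 1.22, and both were below the floor on the Elongin A-/- array, at least 1.65-fold and at least 1.18-fold lower. Syt10 read 1.09 and 1.19, next to the floor, and Sytl5 was above the floor only on the Elongin A-/- array, at 1.23. The other 14 of the 20 genes were below the floor on both arrays, among them Syt2, the calcium sensor of fast brainstem and motor synapses, and Syt7, a sensor of slower release. The family was therefore readable on both arrays in only 3 of its genes.

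Vesicle SNAREs had a median of 0.00 over 6 genes. Of these, 3 were lower (50%) and 3 higher, near the 52.2% lower among all genes above the floor on both arrays. Vamp2, the VAMP of synaptic vesicles, was read by 2 probes. The brighter read 6.01 and 3.78, a difference of -0.67, and the other read 1.59 on the Elongin A+/+ array and 0.53, below the floor, on the Elongin A-/- array. The brighter probe of Vamp2 was therefore lower, although the gene lies on chromosome 11, where the median of all genes was 0.45. The other probe, above the floor on the Elongin A+/+ array only, could only be lower. Vamp1, its relative in spinal cord and brainstem, was below the floor on both arrays. Vamp5, a VAMP first described in muscle, read 1.52 and 4.53, a difference of 1.57 (2.98-fold higher, probe 325540), and its value on the Elongin A+/+ array is near the floor. Vamp8, an endosomal and granule SNARE that is the next protein-coding gene to Vamp5 on chromosome 6, read 20.8 and 25.2, a difference of 0.28. The median of all genes on chromosome 6 was -0.31, so both lay above their chromosome. Vamp3 (-0.18), Vamp4 (-0.31) and Vamp7 (0.18), SNAREs of endosomes, the trans-Golgi network and lysosomes, differed by less than the probe SD, as did Vamp8.

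Target SNAREs were readable in 11 of 14 genes on both arrays, with a median of -0.27. Lower by any margin were 8 of the 11 (72.7%), against 52.2% of all genes above the floor on both arrays. Stx17, the syntaxin of autophagosomes, read 5.21 and 2.22, a difference of -1.23 (2.34-fold lower, probe 668719), and was the only target SNARE at least 2-fold apart. Stx1a, the neuronal syntaxin, read 7.89 and 7.25, a difference of -0.12, and Snap25, its neuronal partner, read 0.33, below the floor, on the Elongin A+/+ array and 1.13, just above it, on the Elongin A-/- array. Stx1a thus did not follow the difference of Syt1, whereas Snap25, below the floor on the Elongin A+/+ array, could not have shown a fall. Stx3, a syntaxin of apical membranes and ribbon synapses, read 3.60 and 2.30 (-0.65). Snap47, a widely expressed relative of Snap25, read 34.5 and 53.0 (0.62) and lies on chromosome 11. Stx4a, Stx5a, Stx6, Stx12, Stx18, Snap23 and Snap29, which serve surface, Golgi, endosomal and endoplasmic reticulum traffic, ranged from -0.38 to 0.14. Stx8 and Stx19 were below the floor on both arrays.

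Of the SNARE partners and priming factors, 4 of 11 genes were above the floor on both arrays and none was 2-fold apart. Cplx2, a complexin, which clamps and promotes SNARE-driven fusion, read 4.85 and 3.28, a difference of -0.56. Cplx3 was above the floor only on the Elongin A-/- array, at 1.34. Stxbp2, the Munc18 protein of blood cells and epithelia, read 4.60 and 7.08 (0.62). Stxbp3, a widely expressed Munc18 protein, read 14.7 and 11.3 (-0.38). Stxbp4 gave 45.2 and 63.4 (0.49) on its brighter probe and 6.39 and 8.16 (0.35) on the other, so its probes had the same sign. Rims2, an active zone protein, read 1.41 on the Elongin A-/- array only. Cplx1, Cplx4, Rims4, Stxbp5l and Stxbp6 were below the floor on both arrays.

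RAB3 proteins are GTPases on secretory vesicles. Rab3a, the main form at synapses, read 3.52 and 6.06, a difference of 0.78, and it lies on chromosome 8, where the median of all genes was 0.47. Rab3c read 2.78 on the Elongin A+/+ array and 0.66, below the floor, on the Elongin A-/- array, at least 2.71-fold lower (probe 911515). Rab3a was thus higher, while Rab3c, above the floor on the Elongin A+/+ array only, could only be lower. Rab3gap1, a subunit of the RAB3 GTPase-activating protein, read 4.88 and 5.62, and Rab3ip, a guanine nucleotide exchange factor also called Rabin8, read 7.50 and 7.48. Rab3b, Rab3d and Rab3il1 were below the floor on both arrays. Of the 11 other RAB GTPases, 7 were above the floor on both arrays, none of them 2-fold apart, with a median of -0.19 and a range from -0.54 (Rab38) to 0.40 (Rab34). Rab39b, a neuronal RAB encoded on the X chromosome, read 2.32 on the Elongin A+/+ array and 1.01, just below the floor, on the Elongin A-/- array, at least 2.26-fold lower (probe 381438). Rab37, a RAB of secretory granules, was above the floor only on the Elongin A-/- array, at 1.53, and Rab39 only on the Elongin A+/+ array, at 1.26.

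Among integral and associated vesicle proteins the synaptogyrins stood apart from one another. Syngr3, the synaptogyrin enriched in brain, read 3.79 on the Elongin A+/+ array and 0.90, below the floor, on the Elongin A-/- array, at least 3.69-fold lower (probe 750611). Syngr1, the other main neuronal form, read 2.43 and 1.27, a difference of -0.94. Syngr2, the form found outside neurons, read 18.6 and 20.7, a difference of 0.15. Syngr1 was thus lower and Syngr2 was not, while Syngr3, above the floor on the Elongin A+/+ array only, could only be lower. Sv2a, a vesicle glycoprotein and the binding site of the drug levetiracetam, read 1.78 and 2.89 (0.70), and Syn2, a synapsin that tethers vesicles to actin, read 1.32 and 1.30. Syn1 read 0.40 on the Elongin A+/+ array and 1.03 on the Elongin A-/- array, where it sat at the floor. Sncg was above the floor only on the Elongin A-/- array (1.31) and Syngr4 only on the Elongin A+/+ array (1.14). Syp, synaptophysin, the usual marker protein of synaptic vesicles, was below the floor on both arrays, as were Sncb, Syn3, Sv2b and the clathrin adaptor Snap91.

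Neurexins and neuroligins are adhesion proteins that face each other across the synapse. Nlgn2, the neuroligin of inhibitory synapses, read 68.0 and 82.2, a difference of 0.27, and lies on chromosome 11. Nrxn3 read 1.27 on the Elongin A+/+ array and was below the floor on the Elongin A-/- array on 1 probe, while its other probe was below the floor on both arrays. Nlgn1 and Nlgn3 were below the floor on both arrays.

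**Figure D3:**
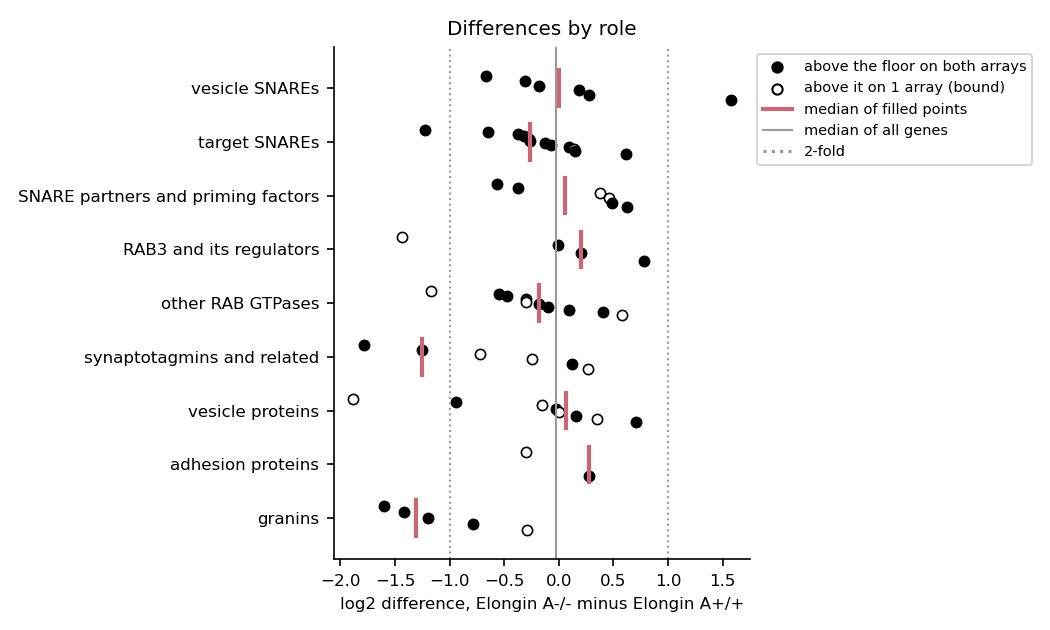
Log2 difference (Elongin A-/- minus Elongin A+/+) of each measured member by role; filled points were above the floor on both arrays, open points are bounds, red ticks are medians of the filled points, and the grey line is the median of all genes (-0.02). Granins and synaptotagmins hold 5 of the 6 filled points left of the 2-fold line.

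The pattern mixes genes of neuronal release with genes of general membrane traffic, and the arrays read these unequally. Of 22 neuronal release genes 7 (31.8%) were above the floor on both arrays and 10 (45.5%) on neither, whereas 18 of 19 general traffic genes (94.7%) were above it on both. Over all genes these shares were 55.0% on both arrays and 30.1% on neither. The medians over genes above the floor on both arrays were -0.12 for the neuronal set and -0.13 for the general set. In the neuronal set 1 of 7 was at least 2-fold lower (Syt1), and in the general set 1 of 18 was lower (Stx17) and 1 higher (Vamp5). Over all genes above the floor on both arrays 4.66% were lower and 5.23% higher by that margin. The granins belong to neither set. On the Elongin A+/+ array Syp, Snap25, Syn1, Cplx1 and Syt2 were below the floor, while Stx1a, Vamp2, Syt1 and Cplx2 were above it.

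In the rest of the release pathway, 37 of 50 listed genes were named on the array and 14 were above the floor on both arrays, with a median of -0.05. At least 2-fold lower were 2 of the 14 (14.3%), and 2-fold higher none. Over all genes above the floor on both arrays these shares were 4.66% and 5.23%. The lower ones were Cadps, which primes dense-core vesicles (5.17 and 2.08, -1.32), and Napa, which recruits the SNARE-disassembling ATPase NSF (8.94 and 4.32, -1.05). Cadps2, the relative of Cadps, was above the floor only on the Elongin A-/- array, at 3.59, and was at least 3.50-fold higher by its bound. Cadps was thus lower, while Cadps2, measured only through the array where it was high, could only be higher. Cacna1a, the pore subunit of the P/Q-type calcium channel that triggers release, was above the floor only on the Elongin A+/+ array, at 1.78, and was at least 1.74-fold lower by its bound. Bsn, Erc1, Erc2, Dnm1, Nsf, Rph3a and Slc17a6 were among the 12 below the floor on both arrays.

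The values were also set out by chromosome. On chromosomes 8 and 11, where 81.6% of all genes above the floor on both arrays were higher and the median was 0.45, 7 of 8 members were higher, with a median of 0.45. These were Rab3a and Stxbp2 on chromosome 8 and Nlgn2, Rab34, Snap47, Stxbp4 and Syngr2 on chromosome 11, and the exception was Vamp2. On the other chromosomes, where 42.2% of all genes were higher and the median was -0.08, 9 of 35 members (25.7%) were higher and the median was -0.28. None of the 10 members at least 2-fold apart lies on chromosome 8 or 11, which hold only 9 of the 59 measured members. Of all measured genes at least 2-fold apart, these chromosomes hold 157 of the 647 higher and 35 of the 571 lower. With so few members there, the absence is not read as a result. With each chromosome's median subtracted, Rab3a stood at 0.31, Stxbp2 at 0.15 and Snap47 at 0.17, Vamp2 at -1.12 and Vamp5 at 1.88. Dosage of the chromosomes was not measured, and its part in these values was not tested.

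**Figure D4:**
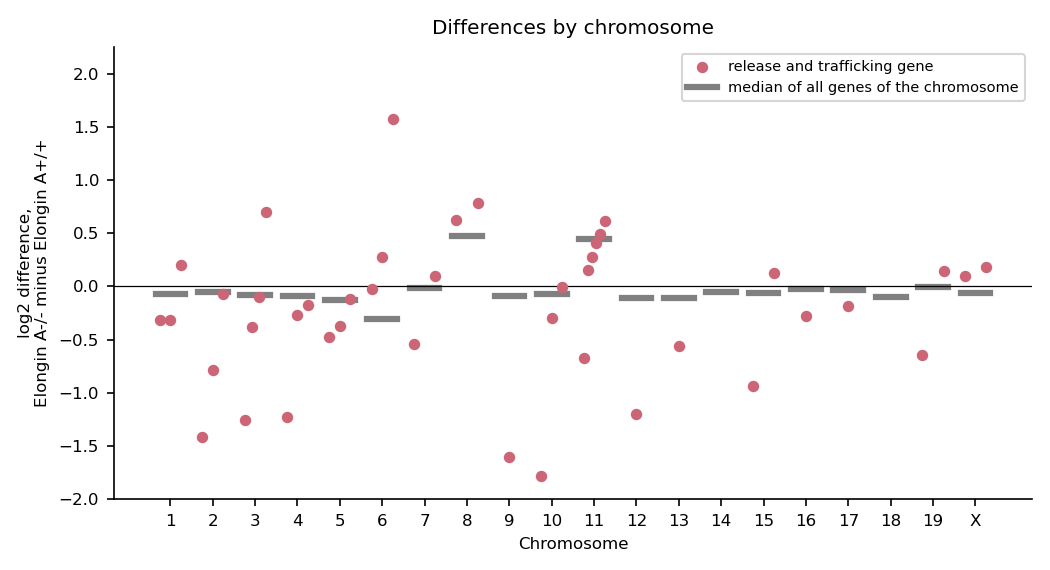
Log2 difference (Elongin A-/- minus Elongin A+/+) of the 43 members above the floor on both arrays (red) by chromosome, with the median of all such genes of each chromosome (grey bars). The grey bars of chromosomes 8 and 11 stand at 0.47 and 0.45 and 7 of 8 members there are above 0, while the granins and synaptotagmins above the floor on both arrays lie on chromosomes with grey bars between -0.11 and -0.06.

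Endothelial and blood markers were higher on the Elongin A-/- array in 9 of 9 measured genes, by at least 4.02-fold each. Over all measured genes 6.76% were at least 2-fold higher. Of the 9, 7 were above the floor on that array only and so could only be higher, while Cldn5 and Kdr were above it on both. Summed intensities were 9.73 and 164 over the 13 genes named. Cldn5 (1.56 and 60.2), Kdr (2.23 and 54.4), Tal1 (0.88 and 10.8) and Hbb-bh1 (0.87 and 8.29) differed most, and Cdh5, Gata1, Ptprc and Tie1 were below the floor on both arrays. Pluripotency markers had summed intensities of 26.7 and 25.9 over 6 genes, with Tdgf1 below the floor on both arrays, Dppa4 2-fold or more higher and Zfp42 2-fold or more lower. The part of these cells in the values of Vamp5, Vamp8 and Stxbp2 was not tested.

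Promoter windows from 250 bases before to 50 bases after the start were matched for 73 members, giving 94 windows among 32619 on the autosomes and X chromosome. The letters TTCAGCACC, on either strand, were in 3 member windows (3.19%), those of Nlgn1, Scg2 and Syn1, against 0.374% of all windows. Of these genes Nlgn1 lay under the floor on each array, and Scg2 and Syn1 were each near it. The letters GGACAGC were in 6.38% of member windows and 6.6% of all, and in Scg2 both matches stood side by side at the start site. The response element TGACGTCA was in 4 member windows (4.26%, Chgb, Scg2, Stxbp3 and Syn1) against 1.8%, and TGACGTAA, searched after the Chga sequence had been seen, in 1 (1.06%) against 0.503%. TATAAA was in 6.38% of member windows and 13.7% of all. The ratio of observed to expected CpG had a median of 0.657 in member windows and 0.387 in all. None of TTCAGCACC, GGACAGC or TGACGTCA was in the 9 windows of the 8 matched members that were at least 2-fold lower. At the shares over all windows, 9 windows are too few for this absence to be read as a result. TATAAA was in 2 of the 9 (22.2%), and TGACGTAA in 1 (11.1%), that of Chga, from which it was picked. These matches are descriptions of letters in a window and say nothing of which factor is bound.

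The direction of the 10 members at least 2-fold apart held in each alternative that gave them a value. Several of these alternatives could not have turned it. Each of the 10 has 1 probe, so the mean over probes returned the same value. Those above the floor on both arrays kept their values with a lower floor or none. Syngr3, Rab3c and Rab39b, above the floor on the Elongin A+/+ array only, could only be lower there. With the floor at the 75th percentile, 5.20, Syt1, Stx17, Syt11 and Chga were no longer 2-fold apart (differences of 0.00, 0.00, -0.56 and -0.45), since their lower values became bounds at that floor. Syngr3, Rab3c, Rab39b and Vamp5 were under that floor on both arrays and had no value, which left 2 members lower and 0 higher. Syt1 and Stx17 thus rest on intensities at or under the upper quartile of the arrays. Scg3 and Scg5 remained at least 2-fold lower in all 7 alternatives. The mean over probes, the lower floor and no floor could only return their reported values. At the 75th percentile Scg5, above that floor on both arrays, also kept its value of -1.42, while Scg3 moved to a bound of -1.18. The sign of 6 members turned with the scaling between arrays, namely Rab33b, Rab3ip, Snap23, Stx1a, Syn1 and Syn2, none of which was 2-fold apart.

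**Figure D5:**
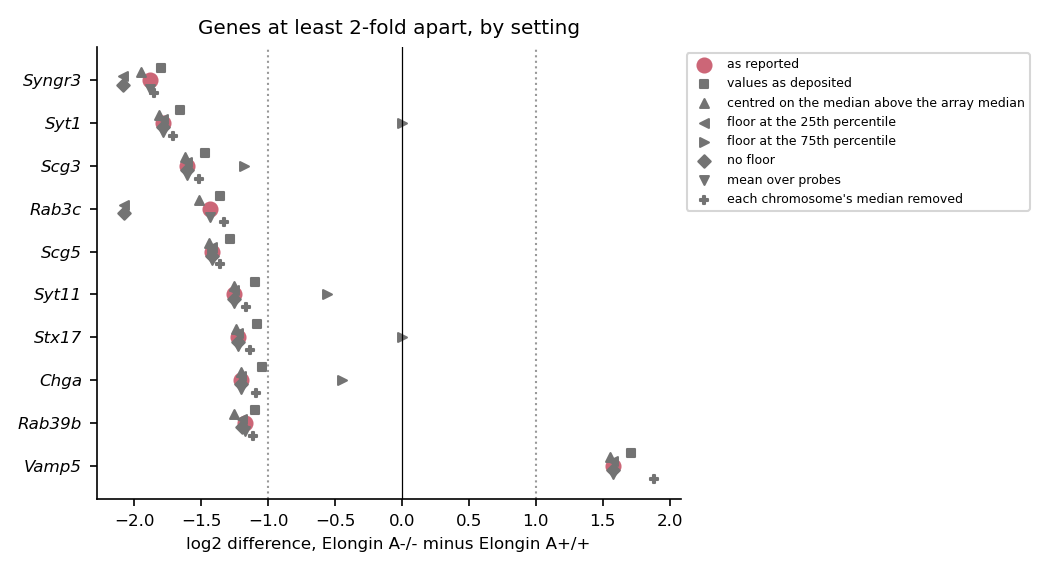
Log2 difference (Elongin A-/- minus Elongin A+/+) of the 10 members at least 2-fold apart, as reported (red) and under each alternative that gave a value (grey symbols); dotted lines mark 2-fold. Apart from the floor at the 75th percentile, where Syt1, Stx17, Syt11 and Chga move towards 0 and Syngr3, Rab3c, Rab39b and Vamp5 have no symbol, each symbol stays outside the 2-fold lines. The mean over probes returns the reported value for each gene, as each has 1 probe.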

How the data were processed

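The authors deposited 1 intensity per probe and array on a linear scale. Per the labels, digoxigenin-labelled cRNA was made from total RNA. No source used here gives the scaling, background correction or filters. Titles gave the genotype of each array. Probes with 1 symbol in the platform annotation (14253 of 32440; 243 have several, 17944 none) were used. All 92 member identifiers were found in the RefSeq table of GRCm38.p6, used for chromosomes. Because the 10th percentiles of the deposited log2 intensities differed by -0.16 (limit 0.1), the arrays were quantile normalised over all probes. A gene with several probes took the one with the highest mean log2 intensity. Values under the array median were set to it before the difference was taken. Genes were counted at 2-fold (1.5-fold and 3-fold were also tried). Members, role groups and lists (neuronal release, general traffic, other release genes, neuronal, neural progenitor, endothelial and blood, endocrine, and pluripotent markers) were chosen with earlier results of these data known. Named with values are members at least 2-fold apart, those with several probes and core release genes, and in addition most other measured members, added after their values were seen (some are given as a range). For each list the rule named at most 4 genes, those furthest apart, and further markers were named after their values were seen. Promoters were matched by gene identifier and searched on both strands. Calculations used Python 3.11.15, numpy 2.4.6 and pandas 2.3.3 and were tested on simulated data.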

Additional observations from a re-analysis of the deposited data

How the results depend on the processing

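The main counts were 9 members at least 2-fold lower and 1 higher. With the floor at the 25th percentile 4 of the 92 were higher and 12 lower, where 1075 and 980 of all 13697 genes were. With the floor at the 75th percentile 0 of the 92 were higher and 2 lower, where 141 and 118 of all 13697 genes were. With no floor 7 of the 92 were higher and 16 lower, where 1506 and 1414 of all 13697 genes were. At 1.5-fold 5 were higher and 14 lower, and at 3-fold 0 and 3. Shares over all genes were not counted at these cut-offs, so the counts at 1.5-fold and 3-fold cannot be judged against the whole array. The other counts stayed within 1.5 times, including those with the values as deposited and centred on the median above the array median, with the mean over probes, and, added after the data were seen, without the other RAB GTPases, without chromosomes 8 and 11 (9 lower, 1 higher) and with each chromosome's median removed (10 lower, 1 higher). The median of members above the floor on both arrays was below 0 in each setting, from -0.28 without chromosomes 8 and 11 to -0.05 with the values as deposited, which moved the median of all genes by 0.11 (from -0.02 to 0.09). With those values 800 genes were higher and 449 lower over the whole array, against 647 and 571. Of 141 values of single named members under alternatives, 123 moved by less than the probe SD and none of the 10 members at least 2-fold apart changed sign where it had a value. Part of these values could not move. A gene with 1 probe keeps its value under the mean over probes, and a gene above the floor on both arrays keeps it under a lower floor. No paired analysis was possible because there is 1 array per genotype, and no array could be left out. Signal near the background limits the synaptotagmins and most vesicle proteins.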
